A study of Mus musculus with 16 samples.

Results

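The genes described here are the members of the EBI3, IL-27 and gp130 receptor axis in CD4 T cells that met their antigen in the mouse: Ebi3, Il12a, Il27ra, Il6st, Il6ra, Il10ra and Stat3. They are 7 of the 18193 genes that the arrays name, each read by the probe set with the highest mean level over 16 arrays. Of these, the 6 genes other than Ebi3 were chosen by their place in the pathway, with earlier results of these data known. Ebi3 was chosen by its level, which had been seen to be higher after transient antigen with anti-CD40 than under persistent antigen. Values of Ebi3 that involve the transient anti-CD40 group or a persistent group are therefore given as a description with no test, and so are the values of all 7 genes in the pair of contrasts that chose Ebi3.

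The samples were lymph node CD4+CD90.1+ cells, sorted 60 h after transfer from AND T cell receptor transgenic donors into B10.BR recipients of 6 to 8 weeks of age. Antigen recipients carried the Ii-rTA and TIM transgenes, so that doxycycline turned antigen expression on through a transactivator named for Ii, the invariant chain of class II molecules; recipients of the no-antigen groups carried TIM and lacked Ii-rTA. Doxycycline ran from day -1 to day 0 in the transient groups and from day -1 to day 3 in the persistent groups, and T cells went in on day 0. The no-antigen samples are titled as without doxycycline, whereas the treatment notes that 3 of their 5 arrays carry list it from day -1 to day 3; absence of antigen is thus tied to the recipients' genotype. Each regime had a PBS group and a group given FGK, an agonistic antibody to CD40 used to activate dendritic cells, on day -1. The PBS groups without antigen, with transient antigen and with persistent antigen held 3 arrays each, the anti-CD40 groups 2 without antigen, 2 with transient antigen and 3 with persistent antigen. Nothing in the labels says that the replicates were separate animals, and the tests speak only to how far these arrays vary.

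EBI3 is the secreted subunit that pairs with p28 to form IL-27 and with p35, the product of Il12a, to form IL-35. The IL-27 receptor joins the chain encoded by Il27ra to gp130, the product of Il6st, which is also the signalling chain of the IL-6 receptor, where Il6ra encodes the chain that binds IL-6. These receptors signal through Janus kinases to STAT3, and the IL-10 receptor, whose ligand-binding chain is encoded by Il10ra, also signals through STAT3. In T cells the pathway is known for its part in IL-10 and IL-21 production and in helper cell differentiation. Il27, the gene of p28, is not analysed here.

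The promoter sequences are shown for the ligand gene whose level chose the set and for the receptor genes with a window that moved together on these arrays. They are the 250 bases before the start site in RefSeq's GRCm38.p6 windows, which held an entry for 5 of the 7 genes; Il27ra and Il10ra had none. In the Ebi3 window, at chr17:55952373-55952622 on the plus strand, capitals mark the match to the NF-kappaB consensus, which begins 44 bases before the start site. In the Il6st window, at chr13:112463820-112464069 on the plus strand, and the Il6ra window, at chr3:89913197-89913446 on the minus strand, capitals mark CpG dinucleotides.
Ebi3: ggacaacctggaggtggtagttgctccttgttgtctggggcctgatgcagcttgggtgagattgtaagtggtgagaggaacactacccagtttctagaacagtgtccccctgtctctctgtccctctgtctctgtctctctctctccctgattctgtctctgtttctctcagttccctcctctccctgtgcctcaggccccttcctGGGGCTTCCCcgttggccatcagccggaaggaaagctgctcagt
Il6st: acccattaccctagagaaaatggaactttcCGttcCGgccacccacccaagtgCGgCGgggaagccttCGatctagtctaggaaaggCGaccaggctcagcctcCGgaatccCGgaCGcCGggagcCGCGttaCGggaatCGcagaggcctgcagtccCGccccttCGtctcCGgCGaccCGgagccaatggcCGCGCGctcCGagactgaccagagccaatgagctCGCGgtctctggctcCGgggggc
Il6ra: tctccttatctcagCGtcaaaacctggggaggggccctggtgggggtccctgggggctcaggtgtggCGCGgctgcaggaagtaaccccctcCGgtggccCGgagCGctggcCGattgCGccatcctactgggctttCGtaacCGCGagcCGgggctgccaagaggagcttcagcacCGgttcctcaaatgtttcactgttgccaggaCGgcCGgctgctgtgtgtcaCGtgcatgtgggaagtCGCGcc
Both strands were searched, and an NF-kappaB match occurs in 7.25% of 32851 such windows. The STAT element TTCNNNGAA, found in 7.02% of them, was matched in neither the Ebi3, the Il6st nor the Il6ra window, which says only that these letters are absent there. The windows differ in base composition. Il6st holds 26 CpG and Il6ra 18, against 2 in Ebi3 and a median of 6 over all windows. Of the members not shown, the Stat3 window holds 13, and the windows of Il12a hold 2 and 15.

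The values are log2(intensity + 1), on which the median probe set stands at 4.37. Arrays differed beyond their groups. The first principal component held 46.7% of the variance and ordered the arrays by both replicate and group: within each group the replicate 2 array had the highest score, and among replicates 1 and 3 the persistent and transient anti-CD40 arrays had the lowest. The mean intensity of replicate 2 arrays was 83.5 to 101 against 106 to 121 on the others. Replicate 1 arrays alone carried the Y-linked Eif2s3y at high level, at 8.86 to 9.93 against 2.61 to 3.09 elsewhere. Arrays with the same replicate number deviated from their group means together, so each result below is given from the fit of group means and, where the call differs, from the fit with the replicate number as a block. Within replicate 2, antigen and no-antigen arrays also came from different runs of array numbers.

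The cells were T cells by their markers: 8 of 9 listed T cell genes were measured, and all 8 stood above the median probe set on every array. Cd3e lay between 7.90 and 9.52 and Cd4 between 6.98 and 8.00. Foxp3, which defines regulatory T cells, stayed between 3.03 and 4.39, but 6 of 7 measured genes of the regulatory T cell list stood above the median probe set on every array. Several of these differed between groups: from no to persistent antigen in PBS the mean of Nrp1 went from 6.34 to 8.98, that of Ctla4 from 5.85 to 7.69 and that of Gpr83 from 6.97 to 4.80. These genes were chosen after their values were seen, and activated or naive T cells are known to express some of them too. Of 16 measured dendritic cell and macrophage genes, 9 stood above the median probe set on every array and 4 below it on every array. Itgax lay between 3.89 and 4.62 and H2-Ab1 between 4.41 and 5.02, whereas H2-Aa reached 5.20 to 7.13, H2-Eb1 5.51 to 6.71 and Lyz2 5.16 to 6.92. Of 7 measured B cell genes, 2 were above it and 3 below it on every array, with Cd79a at 3.13 to 3.93, Ms4a1 at 4.45 to 7.66 and Ighm at 8.54 to 10.42. Signal of genes known from these other cells was thus present in every group. In such bulk samples a higher level per cell cannot be told apart from a larger share of cells that express a gene.

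**Figure D1:**
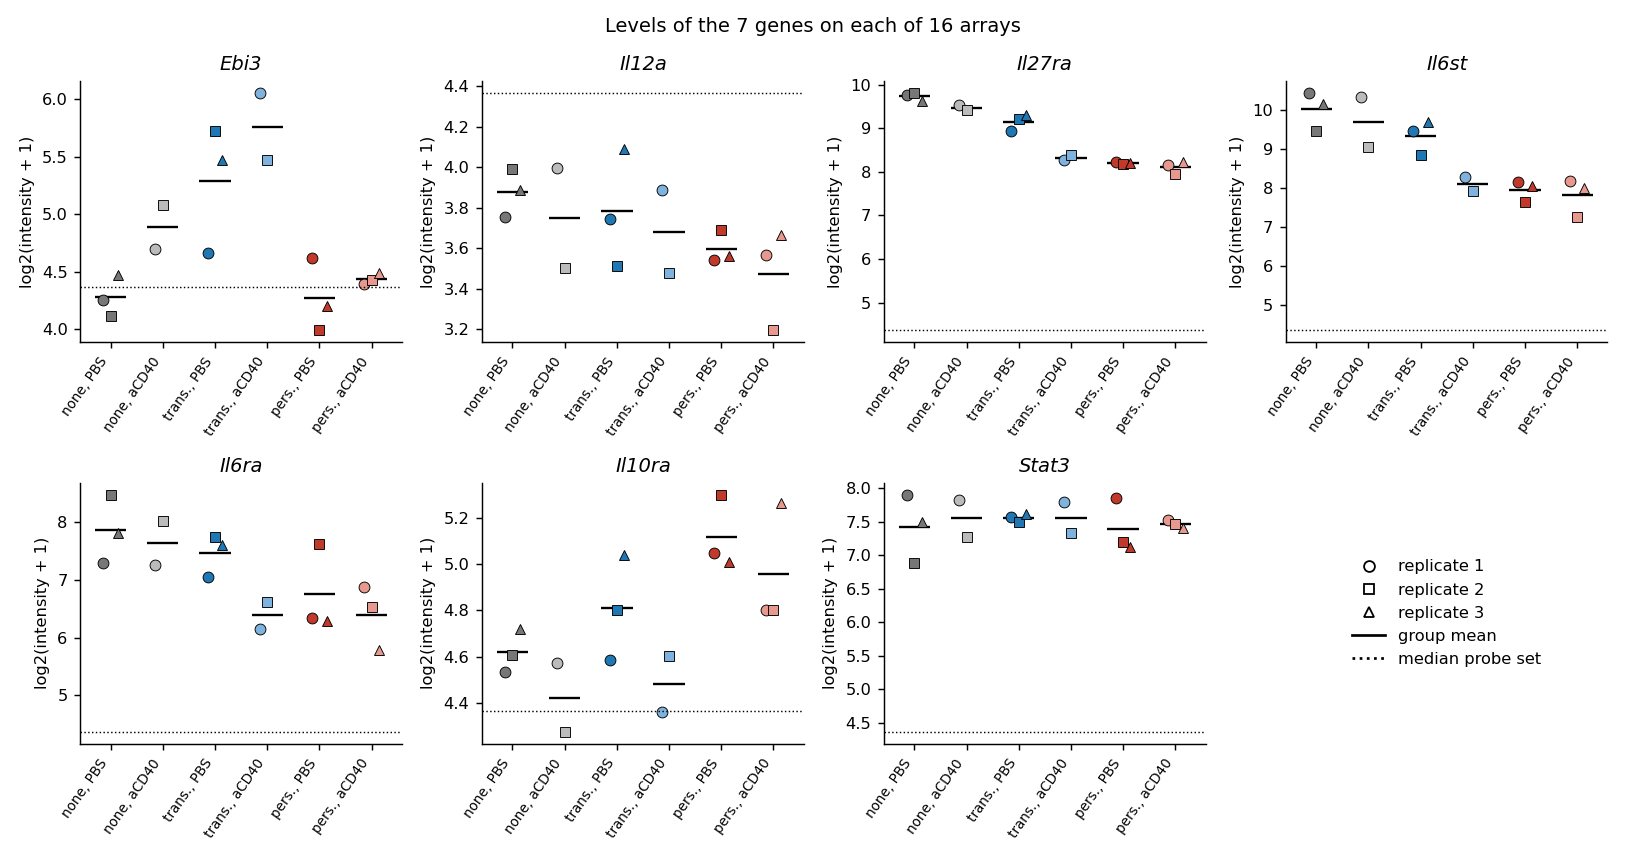
Level of each of the 7 genes on each of 16 arrays as log2(intensity + 1), by group (none, trans. and pers. stand for no, transient and persistent antigen, aCD40 for anti-CD40); symbols mark the replicate number, bars the group mean and the dotted line the median probe set at 4.37. Each panel has its own vertical scale. Ebi3 is highest in the transient groups, Il27ra and Il6st step down from no antigen to persistent antigen, and Il12a lies below the dotted line on every array.

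Ebi3 was a dim gene on these arrays, with a mean of 4.76, and it stood above the median probe set on 12 of 16 arrays. Without antigen and with PBS its level was 4.25, 4.11 and 4.47 in replicates 1, 2 and 3. After transient antigen with PBS it was 4.66, 5.73 and 5.47, and all 3 of these arrays lay above all 3 without antigen, replicate 1 by the least. The difference was 1.01 ± 0.26 (SE of the fit, n = 3 and 3), a 2.01-fold higher mean. It missed the threshold of 0.05 in limma, with an adjusted p of 0.27, and passed it with the replicate block, at an adjusted p of 0.022. Within replicates 1, 2 and 3 the difference was 0.41, 1.61 and 1.0. With the block, the call was lost on leaving out replicate 1 or 2 of the group without antigen or replicate 2 or 3 of the transient group, and also with replicates 1 and 3 only; the difference ranged from 0.66 to 1.36 over the alternatives with the block.

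Anti-CD40 without antigen gave Ebi3 levels of 4.70 and 5.08, both above the 3 PBS arrays. The difference of 0.61 ± 0.29 did not pass, with adjusted p of 1.0 in limma without the block and of 0.90 with it.

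The groups that chose Ebi3 are given as values alone. After transient antigen with anti-CD40 the level was 6.06 and 5.47. Under persistent antigen it was 4.62, 3.99 and 4.20 with PBS and 4.40, 4.43 and 4.49 with anti-CD40. Both transient anti-CD40 arrays thus lay above all 6 persistent arrays. The means differed by 1.49 from persistent PBS and by 1.33 from persistent anti-CD40. Ebi3 was chosen for being higher there, so neither the separation nor these differences lend it support. The persistent PBS mean of 4.27 ± 0.32 (SD, n = 3) stood beside 4.28 ± 0.18 without antigen (SD, n = 3). Anti-CD40 after transient antigen moved the level by 1.39 in replicate 1 and by -0.26 in replicate 2. The order of group means ran from transient anti-CD40 (5.76) through transient PBS (5.29), anti-CD40 without antigen (4.89) and persistent anti-CD40 (4.44) to PBS without antigen (4.28) and persistent PBS (4.27). Of the neighbours in that order, only anti-CD40 without antigen and persistent anti-CD40 had ranges that did not overlap.

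Since dendritic cells and B cells are known sources of EBI3, the summed intensities of their marker lists belong beside these levels. For 16 of 17 dendritic cell and macrophage genes the sum ran from 574 to 633 without antigen in PBS and from 727 to 784 with anti-CD40 without antigen. It was 537 to 697 in the transient PBS group and 517 to 655 in the transient anti-CD40 group, where Ebi3 was highest, and 557 to 734 over both persistent groups; none of these genes was at 0. The B cell sum over 7 of 8 genes, most of it Ighm, was 530 to 1016 without antigen in PBS, 709 to 944 with anti-CD40 without antigen, 902 to 1490 in the transient PBS group, 752 to 914 in the transient anti-CD40 group and 901 to 1350 over both persistent groups. Their part in the Ebi3 levels was not tested.

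The p35 gene Il12a, the partner of Ebi3 in IL-35, lay between 3.20 and 4.09, below the median probe set on 16 of 16 arrays. Its group means ran from 3.88 ± 0.12 (SD, n = 3) without antigen in PBS to 3.48 under persistent antigen with anti-CD40. It passed the threshold in none of the comparisons tested, with or without the block, and a change was not detectable at this level.

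The receptor genes were described in the same way. Il27ra, the IL-27-specific receptor chain, was bright, with a mean of 8.82. Without antigen it read 9.75, 9.81 and 9.63 with PBS and 9.53 and 9.43 with anti-CD40. Transient antigen with PBS gave 8.93, 9.22 and 9.29, and transient antigen with anti-CD40 gave 8.26 and 8.38. Persistent antigen gave 8.22, 8.18 and 8.19 with PBS and 8.16, 7.95 and 8.23 with anti-CD40. The ranges of neighbouring groups in this descending order did not overlap, except those of the persistent groups.

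With PBS, Il27ra fell by 1.54 ± 0.20 on the log2 scale from no antigen to persistent antigen, a 2.90-fold lower mean, with a limma adjusted p of 0.00075. The difference between persistent and transient antigen was -0.95 ± 0.20, with an adjusted p of 0.040 that dropped to 0.00027 with the block. Without the block this second call was lost in the fit of the compared groups alone, under cyclic loess, with replicates 1 and 3 only, and without transient PBS replicate 2 or 3 or any persistent PBS array. The step from no antigen to transient antigen, -0.59 ± 0.20, passed with the block alone, at adjusted p of 0.71 without it and 0.041 with it, and without any one of 5 of the 6 arrays, all but none PBS replicate 3, the blocked call was lost. With anti-CD40, the difference of Il27ra from the no-antigen level was -1.37 ± 0.22 under persistent antigen (adjusted p of 0.0073, lost without replicate 2 of the anti-CD40 group without antigen, at 0.20), and -1.16 ± 0.24 under transient antigen (adjusted p of 0.051, and 0.00028 with the block).

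Il6st, the gene of gp130, followed the same order with a larger replicate effect on the probe set used. Without antigen it read 10.45, 9.47 and 10.16 with PBS and 10.35 and 9.07 with anti-CD40, replicate 2 being the lowest in each group. Transient antigen gave 9.48, 8.87 and 9.70 with PBS and 8.28 and 7.94 with anti-CD40. Persistent antigen gave 8.17, 7.66 and 8.06 with PBS and 8.19, 7.26 and 8.02 with anti-CD40. No persistent array reached the lowest PBS array without antigen.

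With PBS, Il6st fell by 2.06 ± 0.38 from no antigen to persistent antigen, a 4.18-fold lower mean, at a limma adjusted p of 0.0070. Within replicates 1, 2 and 3 the difference was -2.28, -1.81 and -2.10. The difference between persistent and transient antigen, -1.39 ± 0.38, passed with the block alone (adjusted p of 0.13 without and 2.8e-05 with it), as did that between transient and no antigen, -0.68 ± 0.38 (1.0 and 0.043), a blocked call lost without any of the 6 arrays compared. With anti-CD40, Il6st fell by 1.88 ± 0.43 from no antigen to persistent antigen (adjusted p of 0.035), and the transient difference of -1.60 ± 0.47 passed with the block alone (0.15 and 5.7e-05). The persistent call with anti-CD40 was lost without any of the 5 arrays compared, at adjusted p of up to 0.25. Il6st had 4 probe sets. The other bright probe set, with a mean of 7.33, fell by 2.65 ± 0.48 under persistent antigen with PBS (adjusted p over all 45101 probe sets of 0.0094), and 2 dim ones at 3.48 and 3.70 did not pass.

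Il6ra, the IL-6 binding chain, was lower with antigen too, with a wider spread. It read 7.29, 8.48 and 7.82 without antigen in PBS, 7.05, 7.75 and 7.61 after transient antigen in PBS, and 6.34, 7.63 and 6.29 under persistent antigen in PBS. With anti-CD40 it read 7.27 and 8.02 without antigen, 6.16 and 6.62 after transient antigen, and 6.87, 6.53 and 5.79 under persistent antigen. Replicate 2 was high, so the persistent PBS range overlapped that without antigen. The persistent against no-antigen difference in PBS, -1.11 ± 0.42, passed with the block alone (adjusted p of 0.23 and 0.0051). So did the anti-CD40 differences of transient against no antigen, -1.26 ± 0.52 (0.38 and 0.011), and of persistent against no antigen, -1.25 ± 0.47 (0.23 and 0.013). The first of these anti-CD40 calls was lost without anti-CD40 replicate 2 of the group without antigen or either transient array, at adjusted p of up to 0.12. The other was lost without either array of the group without antigen or without persistent replicate 2 or 3, at up to 0.18. The second Il6ra probe set, with a mean of 5.15, passed in none of the comparisons tested.

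Il10ra, the ligand-binding chain of the IL-10 receptor, moved the other way at a low level. It read 4.53, 4.61 and 4.72 without antigen in PBS and 5.05, 5.30 and 5.01 under persistent antigen in PBS, with no overlap. The difference of 0.50 ± 0.18 did not pass in limma (adjusted p of 0.18) and passed with the block (0.038). That blocked call was lost without any of the arrays of the group without antigen and without replicate 1 or 2 of the persistent group. A second, dimmer probe set was higher by 0.80, with a blocked adjusted p of 0.0092, and the third differed by 0.02 (0.96). In the anti-CD40 groups none of the 3 probe sets passed between persistent and no antigen, with or without the block. The other groups read 4.59, 4.80 and 5.04 after transient antigen in PBS, 4.57 and 4.28 with anti-CD40 without antigen, 4.36 and 4.60 after transient antigen with anti-CD40 and 4.80, 4.80 and 5.26 under persistent antigen with anti-CD40.

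Stat3, the transcription factor below these receptors, had group means between 7.39 and 7.56 and passed in none of the comparisons tested. Its arrays ran from 6.89 to 7.91, and every group overlapped its neighbour. Of its 4 probe sets, 1 with a mean of 6.79 was lower under persistent than no antigen, at -1.01 in PBS (blocked adjusted p of 0.0079) and -1.07 in the blocked fit with anti-CD40 (0.016), while the other 3 did not pass in either.

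**Figure D2:**
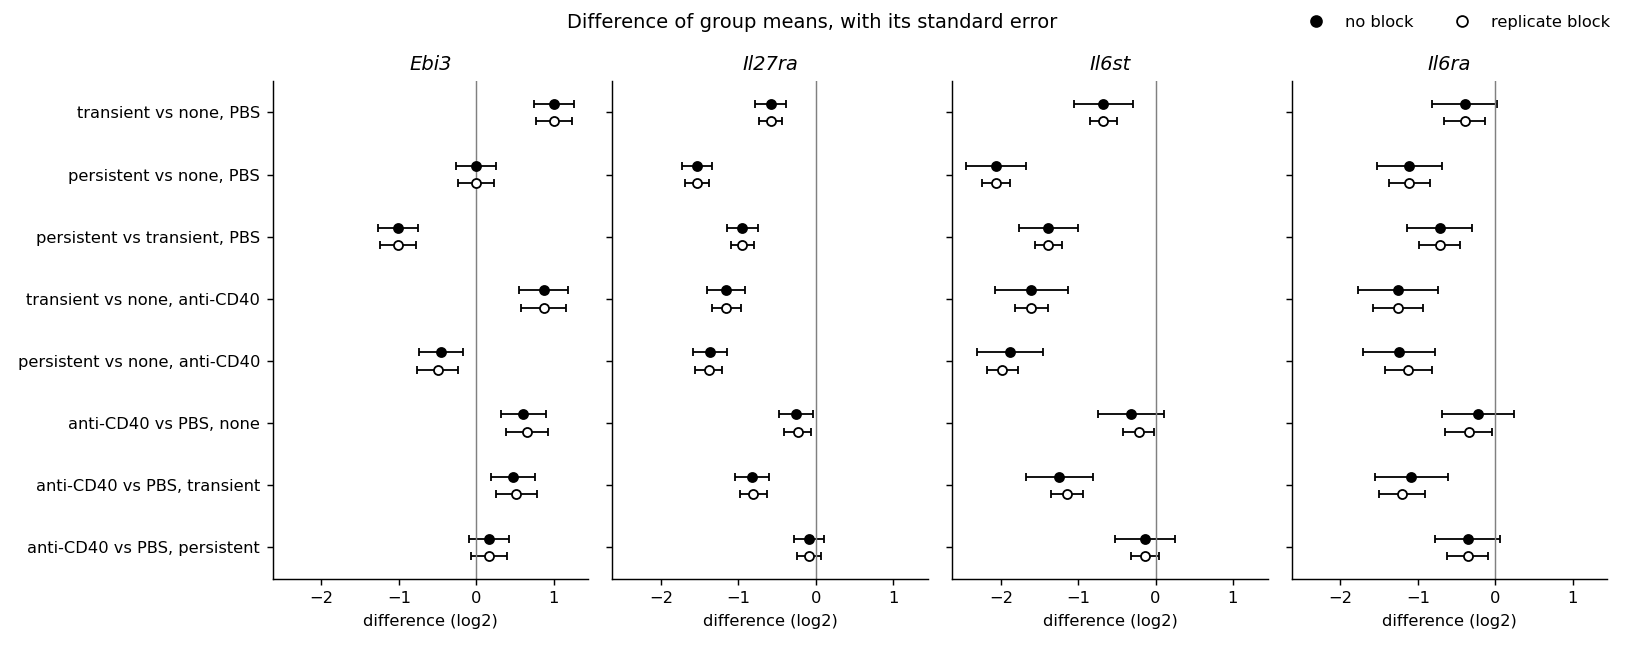
Difference of group means (log2) for Ebi3, Il27ra, Il6st and Il6ra in 8 comparisons, with its standard error, from the fit without a block (filled) and with the replicate block (open). For Ebi3 only the transient against no-antigen comparison in PBS and anti-CD40 without antigen were tested. The Il27ra and Il6st points lie left of 0 in all 8 comparisons, those of Il6st under persistent against no antigen in PBS at -2.06.

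Read against all genes, the counts were as follows. In PBS, transient against no antigen, 0 of 7 members passed in limma, where 0.126% of all genes passed, and 3 of 7 passed with the block against 2.89%. At an unadjusted p under 0.05 without the block stood 2 members, beside 845 of all 18193 genes. Under persistent against no antigen in PBS, 2 of 6 tested members passed against 3.57% of all genes, and 4 of 6 with the block against 16.7%. For persistent against transient antigen in PBS, 1 of 6 passed against 0.929%, and 2 of 6 with the block against 11.4%. With anti-CD40, transient against no antigen, 0 of 6 passed in limma against 0.572% of all genes, and 3 of 6 with the block against 14%. There 3 members were at an unadjusted p under 0.05 without the block, beside 1904 of all genes. Persistent against no antigen with anti-CD40 gave 2 of 6 against 2.37%, and 3 of 6 with the block against 16.4%. The median member difference in the 5 antigen comparisons without a block ran from -0.76 to -0.10, and that of all genes from -0.05 to 0.03. These comparisons share control groups, so their counts are not independent of each other. The members were also chosen with earlier results of these data known, so the counts describe these genes and are no test of the set.

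Anti-CD40 was then compared with PBS within each antigen regime. After transient antigen the anti-CD40 minus PBS difference was -0.83 ± 0.22 for Il27ra, -1.24 ± 0.43 for Il6st and -1.09 ± 0.47 for Il6ra. For each of these genes the anti-CD40 arrays lay below all 3 PBS arrays. How many of all genes separated in this way was not counted, here or for the other separations of groups given above. None of the 6 tested members passed in limma without the block, where 0.638% of all genes passed. At an unadjusted p under 0.05 there were 3 members, beside 1691 of all 18193 genes. With the block, 3 of 6 passed against 10.5%: Il27ra at -0.81 ± 0.17 (adjusted p of 0.0041), Il6st at -1.14 ± 0.20 (0.00087) and Il6ra at -1.21 ± 0.30 (0.012). All 3 blocked calls were lost without transient anti-CD40 replicate 1.

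Without antigen, none of the 7 members passed for anti-CD40 against PBS in either limma fit. Without the block 0 were at an unadjusted p under 0.05, beside 317 of all 18193 genes, and 0% of all genes passed the threshold. With the block 1 was, Ebi3 at 0.66 ± 0.27, beside 965 of all genes, and 0.0055% of all genes, 1 gene, passed the threshold. Under persistent antigen none of 6 tested members passed for anti-CD40, and 0% of all genes passed in both fits. At an unadjusted p under 0.05 there were 0 members in either fit, beside 110 of all genes without the block and 484 with it. There Il27ra differed by -0.09 ± 0.20 and Il6st by -0.14 ± 0.38. Whether the anti-CD40 difference itself was unlike between transient antigen and no antigen was tested as an interaction. At an unadjusted p under 0.05 there were 0 members without the block and 2 with it, beside 895 and 2943 of all genes. No member passed the threshold, where 0% of all genes passed without the block and 3.69% with it. The nearest was Il6st, at -0.93 ± 0.28 with the block and an adjusted p of 0.071. For persistent against no antigen, no member passed the interaction test, and 0% of all genes passed in both fits. None was at an unadjusted p under 0.05, beside 157 of all genes without the block and 667 with it.

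**Figure D3:**
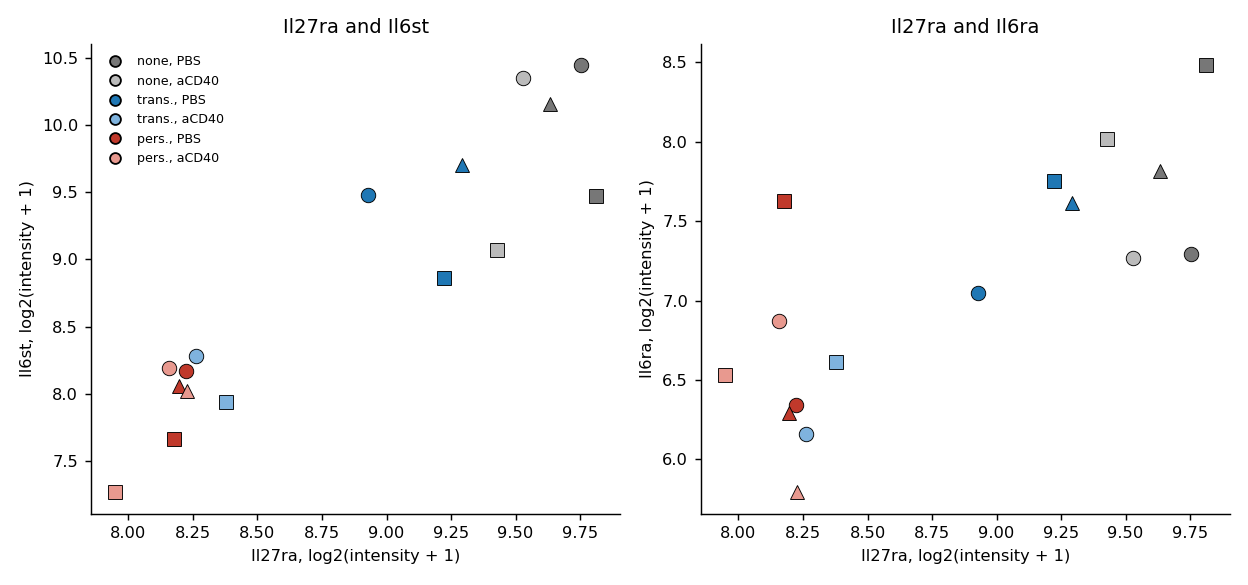
Level of Il27ra (horizontal, log2(intensity + 1)) against that of Il6st (left) and Il6ra (right) on each of 16 arrays, coloured by group, with circles for replicate 1, squares for replicate 2 and triangles for replicate 3. The arrays without antigen sit at high Il27ra and high Il6st and the persistent arrays at low levels of both. On the Il6st probe set used, replicate 2 lies below the other arrays of its group.

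The receptor chain genes Il27ra, Il6st and Il6ra moved together across the arrays. Over 16 arrays the Pearson correlation of Il27ra with Il6st was 0.92, and 0.99 once replicate effects were taken away. Il27ra with Il6ra gave 0.78 and 0.86, and Il6st with Il6ra 0.57 and 0.85. With replicate effects taken away, Il10ra was at -0.54 with Il27ra, -0.53 with Il6st and -0.30 with Il6ra. The dim ligand gene Il12a was at 0.66, 0.66 and 0.69 with them in the same order. These values describe arrays that share groups and array effects. Ebi3 was at 0.02 with Il27ra and 0.02 with Il6st after the same step, and at -0.41 with Il10ra and 0.50 with Stat3.

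By the same measure, the genes most like Ebi3 among the 11246 above the median probe set were Polrmt, Acy1, Hemk1, Slc25a38 and Gnl2, with correlations of 0.84 to 0.85 over 16 arrays, and of 0.52 to 0.78 before replicate effects were taken away. Their differences were small. These genes rank highest among many candidates, over groups that include those that chose Ebi3, and shared regulation with Ebi3 was not tested. Polrmt, the mitochondrial RNA polymerase, ran from 5.79 in the persistent PBS group to 6.29 in the transient anti-CD40 group, and Acy1, an aminoacylase, from 4.96 without antigen in PBS to 5.61 in the transient anti-CD40 group.

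The other genes of the pathway were listed by role. Among ligand genes, 10 of 13 listed were measured and 4 of these stood above the median probe set. Il21, the helper T cell cytokine that signals through STAT3, had a mean of 4.06 without antigen in PBS, 4.07 after transient antigen in PBS and 8.66 ± 1.06 (SD, n = 3) under persistent antigen in PBS. It rose by 4.60 ± 0.60 from no to persistent antigen in PBS (limma adjusted p of 0.00075). Anti-CD40 after transient antigen raised it by 3.42 ± 0.67 (0.038). Of the 10, 1 passed under persistent against no antigen in PBS, where 3.57% of all genes passed, and with the block 3 were higher and 1 lower against 16.7%: Il10 rose by 0.68 ± 0.17 (0.0092), Lif by 1.16 ± 0.34 (0.023), and Clcf1 fell by 0.76 ± 0.20 (0.012).

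Among other receptor chains, 8 of 10 were measured, and only Il12rb1, the chain shared by the IL-12 and IL-23 receptors, passed in any comparison. It was 4.74 without antigen in PBS and 5.45 under persistent antigen, higher by 0.71 ± 0.18 (limma adjusted p of 0.042), where 3.57% of all genes passed. With the block Il12rb1 was higher in all 4 comparisons of antigen with no antigen. There 2.89% of all genes passed for transient and 16.7% for persistent antigen in PBS, and 14% and 16.4% with anti-CD40. Its direction was opposite to that of Il27ra, Il6st and Il6ra.

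Of 10 listed kinase and STAT genes 9 were measured. Stat4, the transcription factor used by IL-12, rose by 1.80 ± 0.40 under persistent against no antigen in PBS (adjusted p of 0.021); with the block 1 gene was higher and 2 lower there, where 16.7% of all genes passed, Jak1 by -0.56 ± 0.16 (0.018) and Stat6 by -0.70 ± 0.19 (0.015). Of the 10 inhibitor genes, 3 passed, only with the block and only in the anti-CD40 comparison of persistent with no antigen, where 16.4% of all genes passed: Ptpn1 by 0.68 ± 0.18 (0.014) and Ptpn11 by 0.68 ± 0.17 (0.0071) higher and Ptpn6 at -0.72 ± 0.16 (0.0040).

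The genes listed as targets of the pathway in T cells, were measured for 15 of 16. Under persistent against no antigen in PBS, 3 passed higher and 0 lower, against 401 higher and 248 lower of all 18193 genes, and with the block 7 higher and 1 lower against 1807 and 1235. The median difference was 0.38 against -0.03 over all genes. With anti-CD40, transient against no antigen gave 1 higher and 0 lower, against 77 and 27 of all genes. With the block it gave 9 higher and 2 lower against 1915 and 633 of all genes, at a median of 1.16 against -0.01. From no to persistent antigen in PBS, Maf rose by 4.29 ± 0.52 (limma adjusted p of 0.00063), Tbx21 by 3.29 ± 0.66 (0.012) and Prdm1, the gene of Blimp-1, by 2.55 ± 0.46 (0.0065). In that same comparison Pim1, a kinase gene, rose by 1.60 with the block (3.1e-05). After transient antigen in PBS none passed without the block, against 17 higher and 6 lower of all genes. With the block 2 were higher and 1 lower, against 367 and 158 of all genes. They were Maf at 1.97 ± 0.28 (0.00037), Tbx21 at 1.62 ± 0.27 (0.0018), and Bcl6, the follicular helper factor, at -1.32 ± 0.20 (0.00073). With anti-CD40, Ahr, the aryl hydrocarbon receptor, was higher after transient than without antigen by 2.17 ± 0.41 (0.034). Its anti-CD40 difference after transient antigen was 2.60 ± 0.38 (0.011).

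**Figure D4:**
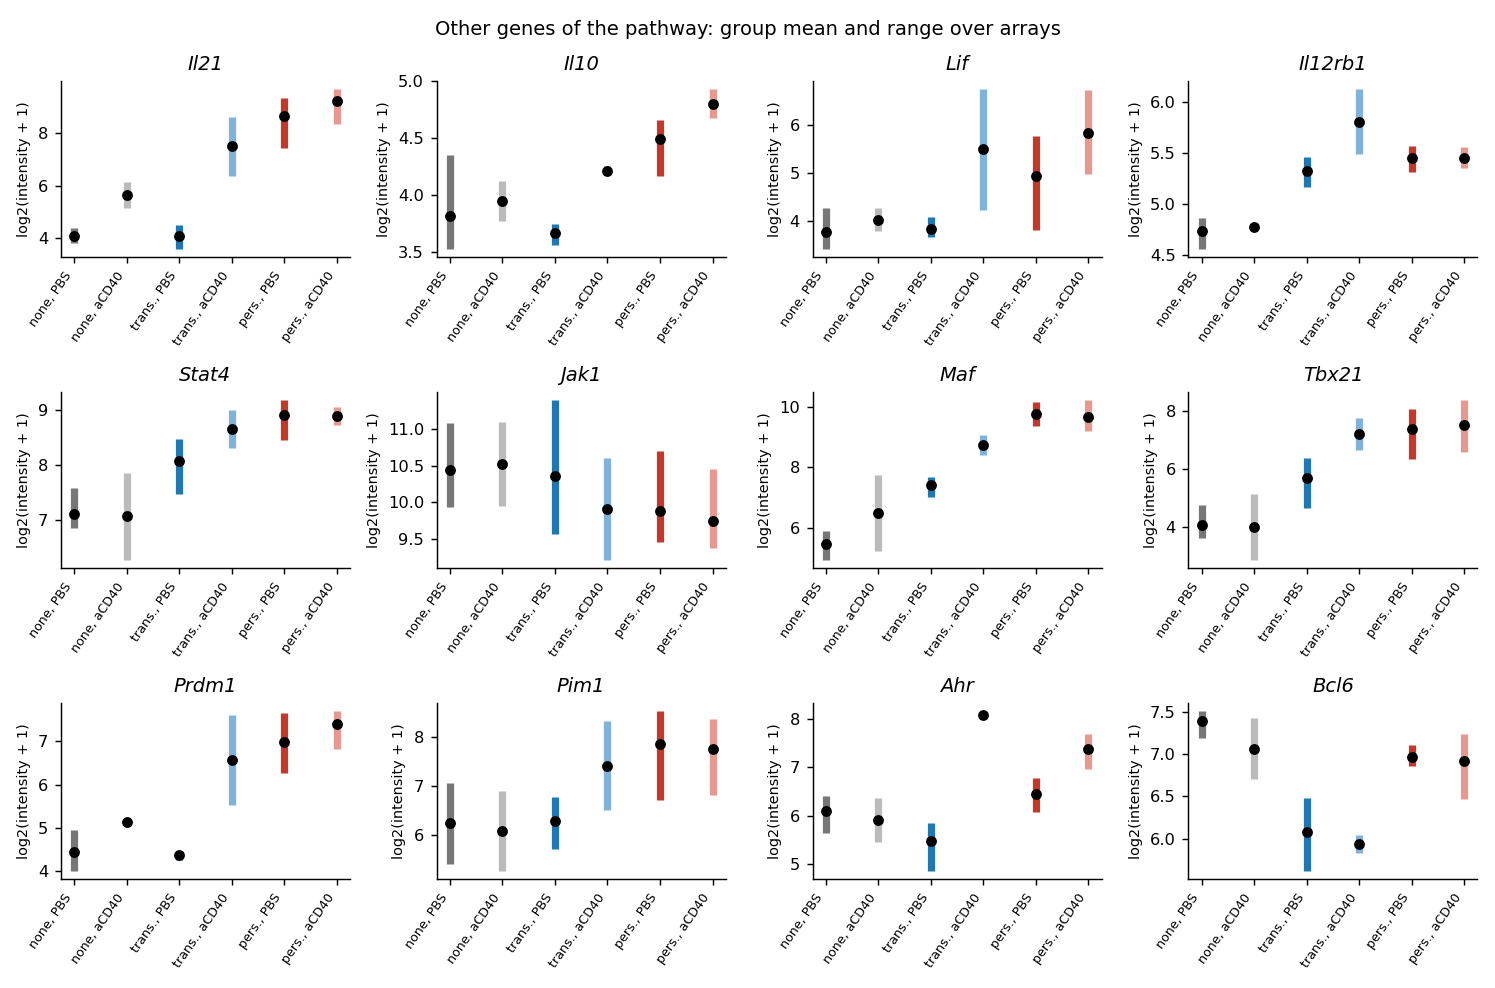
Levels of 12 other pathway genes by group as log2(intensity + 1); dots are group means and bars the range over arrays, each panel with its own vertical scale. Il21, Maf, Tbx21 and Stat4 are highest under persistent antigen, and Ahr after transient antigen with anti-CD40 at 8.08.

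Other list sums stood beside these differences. The T cell list summed to 8568 to 10109 without antigen in PBS and 9422 to 11208 after transient antigen in PBS, against 7670 to 8683 under persistent antigen in PBS. With anti-CD40 it was 7366 to 10276 without antigen, 7326 to 8382 after transient antigen and 7421 to 9024 under persistent antigen. The plasma cell list, carried by Xbp1, summed to 345 to 366 without antigen, 334 to 358 after transient antigen and 424 to 523 under persistent antigen in PBS. With anti-CD40 it was 313 to 376, 508 to 581 and 505 to 622 in the same order. Their part in the receptor and pathway levels was not tested.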

How the data were processed

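RNA of 16 mouse samples was measured on Affymetrix arrays after repeated amplification, per the labels' protocols. The authors deposited RMA values, per the submitters' processing notes, as a linear intensity per probe set; version, genome build and summary settings are not given in the sources used here. Of 45101 probe sets, 64 were controls and were left out of the gene table; of the others 34945 had 1 gene symbol, 932 several and 9160 none in the platform annotation. Levels are log2(intensity + 1), 1 probe set a gene (highest mean), for 18193 genes.

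Group means were fitted on all 16 arrays in limma 3.58.1 (R 4.3.3; eBayes with trend, residual df 10), with Benjamini-Hochberg adjustment over all genes and a threshold of 0.05. Replicate numbers pair the arrays. In their deviations from group means, 36 same-number pairs from different groups correlated at 0.48 to 0.81. On that measure 16 of 16 arrays correlated best with their own number, so the fit with that number as a block (df 8) is given too. The fit was tested on simulated data.

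Named from each list were up to 4 genes with the largest difference past the threshold in a comparison, and the 5 genes most like Ebi3. Members and lists were chosen with earlier results of these data known. The number of arrays limits the precision. Figures used Python 3.11.15 and matplotlib 3.10.9.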

Additional observations from a re-analysis of the deposited data

How the results depend on the processing

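Alternatives to the fit were a block on the replicate number or on the 4 runs of array numbers, the compared groups alone, no intensity trend, dim genes left out, averaging over the probe sets of each gene, cyclic loess, array weights, an offset of 16, and each array left out; replicates 1 and 3 alone, and all of these with the replicate block kept, were added after seeing the data. No called difference of a member changed sign, in 78 refits without the block and 240 with it, but 17 and 42 of them lost the call. With the block, Il27ra and Il6st under persistent against no antigen, persistent against transient antigen in PBS and, given anti-CD40, transient against no antigen, and Il6ra under persistent against no antigen in PBS, passed in every refit; without it, Il27ra and Il6st under persistent against no antigen in PBS did. The cause of the changes below was not tested.

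Members past the threshold without the block moved as follows. Transient against no antigen in PBS went from 0 to 3 with the replicate block, 2 with the array run block and 1 with array weights. Persistent against no antigen in PBS went from 2 to 4 with the replicate block. Persistent against transient antigen in PBS went from 1 to 2 with the replicate block, the array run block or the mean of probe sets, to 4 with array weights and to 0 in the compared groups alone, and to 0 to 1 on leaving out arrays. In the anti-CD40 groups, transient against no antigen went from 0 to 3 with the replicate block, 2 with the array run block, the mean of probe sets or cyclic loess, and 1 with no trend, dim genes left out or replicates 1 and 3 only. Persistent against no antigen with anti-CD40 went from 2 to 0 in the compared groups alone, 1 with array weights, and 0 to 1 on leaving out arrays. Anti-CD40 after transient antigen went from 0 to 3 with either block and 1 with no trend, cyclic loess or replicates 1 and 3 only. Its interaction with no antigen went from 0 to 1 with the array run block.

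With the replicate block, transient against no antigen in PBS went from 3 to 1 in the compared groups alone or with replicates 1 and 3 only, and to 0 to 2 on leaving out arrays. Anti-CD40 after transient antigen went from 3 to 0 to 3 on leaving out arrays, being 0 without transient anti-CD40 replicate 1. The interaction of anti-CD40 between transient and no antigen went from 0 to 1 with dim genes left out or replicates 1 and 3 only, to 2 with cyclic loess, and to 0 to 1 on leaving out arrays.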
